A study of Mus musculus with 2 samples.

Results

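The 9 genes described here, of 18131 in the deposited tables, encode the histone methyltransferases of H3K9 and H4K20 and the class I histone deacetylases to which repression by Prdm6 has been linked. They were taken by name: Ehmt1, Ehmt2 and Suv39h1 for H3K9, Kmt5a, Kmt5b and Kmt5c for H4K20, and Hdac1, Hdac2 and Hdac3. All 9 were present in both tables. The data are transcriptomes of single cells dissected from the cardiac neural crest level of C57BL/6 mouse embryos at E9.5, with 1 library per genotype. WT embryos were Prdm6+/+; Wnt1-Cre2; ZsGreen1 and KO embryos were Prdm6f/f; Wnt1-Cre2; ZsGreen1, so embryos of both groups carried the Cre transgene and the reporter. Wnt1-Cre2 drives Cre in the Wnt1 lineage, which holds the neural crest and the dorsal neural tube, and cells of other lineages in the KO embryos keep Prdm6. Embryos were pooled, and cells are not assigned to single embryos here.

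Methylation of H3K9 marks silent chromatin. Ehmt1 (GLP) and Ehmt2 (G9a) act as a pair that places the mono- and dimethyl marks, and Suv39h1 places the trimethyl mark of heterochromatin. Kmt5a is the enzyme that places the monomethyl mark of H4K20 and is known for its turnover during S phase, while Kmt5b and Kmt5c extend this mark to the di- and trimethyl states. Hdac1 and Hdac2 are close paralogs that share the Sin3, NuRD and CoREST complexes, and Hdac3 works with the NCoR and SMRT corepressors. PRDM6, a SET domain protein of smooth muscle and its precursors, represses transcription together with such enzymes.

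The WT library held 11958 cells and 20781384 unique molecular identifiers (UMIs), with a median of 1597 UMIs per cell, against 9765 cells, 18936857 UMIs and a median of 1703 in KO. The libraries shared 26 cell barcodes (0.217% of WT and 0.266% of KO cells). Levels are given as UMIs per 1000000 UMIs (CPM) with an exact Poisson interval of 95%, and ratios as log2 of KO over WT with an exact conditional interval of 95%. These intervals cover counting error alone, because 1 library per genotype shows no spread between embryos. No test was therefore made, and a ratio is called past the fold when it exceeds 0.32 on the log2 scale in either direction. The labels name cardiac neural crest cells, but the dissected tissue also held cardiac muscle-like, endothelial-like and erythroid-like cells, each defined by markers of its own. Prdm6 showed 104 WT against 59 KO UMIs (5.00 and 3.12 CPM). The neural crest and neural tube classes described further on held 2 and 3 of these, against 41 and 22 in the other classes they are compared with and 59 and 34 in ungated cells. The lower sum in KO was thus not found in the neural crest and neural tube classes, the lineage of ungated cells was not determined, and these counts give no check of the deletion.

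In GENCODE vM21 (GRCm38), the members lie on 9 chromosomes. Ehmt1 lies at chr2:24789928-24919614 on the minus strand, Ehmt2 at chr17:34898469-34914052 on the plus strand and Suv39h1 at chrX:8061171-8074760 on the minus strand. Kmt5a lies at chr5:124439930-124462308, Kmt5b at chr19:3767421-3818303 and Kmt5c at chr7:4740115-4747514, all on the plus strand. Hdac1 lies at chr4:129516104-129542713 on the minus strand and Hdac2 at chr10:36974544-37001889 on the plus strand. Within the last 400 bases of the longest coding transcript of each member, 0 of 310 windows of 91 bases occurred in a transcript of another gene. Suv39h1 overlaps the antisense gene Gm14820, which has a column of its own in the tables, and Kmt5b overlaps the antisense gene Gm16066. Ehmt1 overlaps Gm38147 and Gm37139, unconfirmed transcripts on its own strand that have no column in the tables. Whether the counting used strand was not stated, so the values of Suv39h1 and Kmt5b may include reads of their antisense genes, and those of Ehmt1 may include reads of the transcripts on its strand.

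Promoters of 7 of the 9 members were found in a RefSeq table (GRCm38.p6). Those of Ehmt1 and Hdac2 are shown because the levels of these genes varied together over cell classes (Pearson r 0.70 over 26 points). The 250 bases before each start site are given 5′ to 3′ on the strand of the gene, with CpG dinucleotides in capitals.
Ehmt1, chr2:24919610-24919859, minus strand: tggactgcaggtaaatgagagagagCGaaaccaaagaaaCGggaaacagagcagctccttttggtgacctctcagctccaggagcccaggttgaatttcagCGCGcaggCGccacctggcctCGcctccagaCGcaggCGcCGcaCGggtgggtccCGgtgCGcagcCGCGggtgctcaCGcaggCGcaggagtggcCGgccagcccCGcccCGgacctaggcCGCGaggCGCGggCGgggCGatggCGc
Hdac2, chr10:36974294-36974543, plus strand: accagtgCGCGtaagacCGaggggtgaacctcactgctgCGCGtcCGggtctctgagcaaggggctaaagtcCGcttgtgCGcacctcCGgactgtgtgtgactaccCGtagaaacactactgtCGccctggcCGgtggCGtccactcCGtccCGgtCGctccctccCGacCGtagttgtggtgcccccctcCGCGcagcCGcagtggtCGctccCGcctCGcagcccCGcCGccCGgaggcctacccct
The Ehmt1 stretch held 26 CpG and the Hdac2 stretch 27, against a median of 6 over the same stretch of 32851 promoters, of which 9.59% held 26 or more. Motifs known from cell cycle and housekeeping promoters were searched on both strands of the 300-base windows. The E2F motif TTTCCCGC was found in 1 of the 12 member windows (Kmt5c) and in 1.07% of all promoters. The NRF1 motif was found in 2 of 12 (Ehmt1 and Suv39h1) and in 4.6% of all promoters. CCAAT was found in 5 of 12 (windows of Kmt5a, Kmt5c and Suv39h1) and in 37.4% of all promoters. The CHR motif TTCGAA, whose reverse complement is the same letters, was found in 2 of 12 (Kmt5a and Kmt5b) and in 1.56% of all promoters. The E2F motifs TTTGGCGC and TTTCGCGC, the CHR motif TTTGAA and the ETS motif CCGGAAGT were found in none of the 12 member windows and in 0.514%, 0.323%, 17.9% and 3.89% of all promoters.

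Over all cells, 0 of the 9 members were past the fold between the libraries. Of the 10513 genes with at least 200 UMIs, 14.5% were past this fold, 3.86% higher and 10.6% lower in KO. After TMM scaling these shares were 6.48% and 7.12%. Hdac2, Hdac3, Kmt5c and Ehmt1 were lower in KO and Hdac1 was higher, by more than counting error, whereas Ehmt2, Suv39h1, Kmt5a and Kmt5b had intervals that included 0. The share of all genes with an interval off 0 was not determined. The median absolute log2 ratio was 0.13 for the 9 members and 0.14 for all 10513 genes, so the members moved about as much as other genes. With TMM the intervals of Ehmt2 (0.02 to 0.19) and Kmt5a (0.02 to 0.13) lay above 0, and with cells thinned to 1000 UMIs those of Kmt5c (−0.44 to 0.04), Hdac3 (−0.31 to 0.02) and Hdac1 (−0.01 to 0.20) included 0. The median log2 ratio of the 9 members was 0.01, and that of all 10513 genes was −0.06, with 5% of genes below −0.44 and 5% above 0.30.

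**Figure D1:**
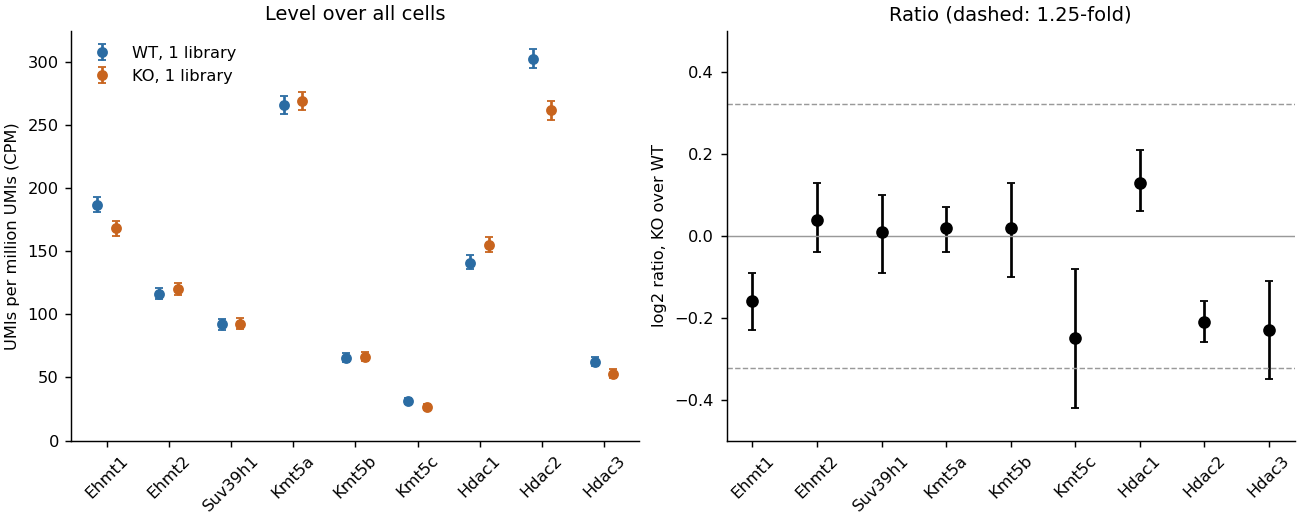
Level of each member over all cells in CPM (left) and log2 ratio of KO over WT (right); points are single libraries or their ratio, bars are 95% counting intervals and dashed lines mark 0.32 on the log2 scale in each direction. Hdac2 lay at 302 CPM in WT and 262 in KO, Hdac1 at 141 and 155, and all 9 ratios lie between the dashed lines.

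Among the H3K9 methyltransferases, Ehmt1 gave 3893 WT UMIs, at 187 CPM (181 to 193), against 3174 KO UMIs, at 168 CPM (162 to 174). The intervals did not overlap, and the log2 ratio was −0.16 (−0.23 to −0.09). Its partner Ehmt2 gave 2418 WT and 2270 KO UMIs (116 and 120 CPM), for a log2 ratio of 0.04 (−0.04 to 0.13) that reached 0.20 (0.09 to 0.32) when each cell was thinned to 1000 UMIs. Suv39h1 had 1911 and 1749 UMIs (92 and 92.4 CPM, ratio 0.01, interval −0.09 to 0.10). The balance within the pair can be given without a library total: the log2 ratio of Ehmt1 to Ehmt2 UMIs was lower in KO by 0.20 (change −0.20, interval −0.31 to −0.10).

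Among the H4K20 methyltransferases, Kmt5a showed 5528 WT against 5094 KO UMIs (266 and 269 CPM), for a log2 ratio of 0.02 (−0.04 to 0.07). The libraries were thus close in Kmt5a RNA, and thinning gave −0.04. Kmt5b had 1365 and 1257 UMIs (65.7 and 66.4 CPM, ratio 0.02, interval −0.10 to 0.13). Kmt5c, the trimethylating enzyme, was the least sampled member with 653 WT and 502 KO UMIs (31.4 and 26.5 CPM), for a log2 ratio of −0.25 (−0.42 to −0.08).

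The class I deacetylases differed in direction. Hdac2 gave 6286 WT and 4954 KO UMIs (302 and 262 CPM), for a log2 ratio of −0.21 (−0.26 to −0.16). Hdac3, at chr18:37935844-37955016 on the minus strand, showed 1295 WT against 1006 KO UMIs (62.3 and 53.1 CPM), for a log2 ratio of −0.23 (−0.35 to −0.11). Hdac1 was higher in KO, with 2938 WT and 2935 KO UMIs (141 and 155 CPM), for a log2 ratio of 0.13 (0.06 to 0.21). The log2 ratio of Hdac2 to Hdac1 thus moved by −0.34 (−0.43 to −0.25) from WT to KO and that of Hdac3 to Hdac1 by −0.36 (−0.50 to −0.22), while that of Hdac2 to Hdac3 moved by 0.02 (−0.11 to 0.15). These changes of ratio do not depend on how the libraries are scaled.

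The share of cells with a UMI depends on depth. Hdac2 was found in 40.1% of WT cells and 39.1% of those from KO, and after thinning to 1000 UMIs (shallower cells, 1361 of WT and 125 of KO, being dropped) in 26.4% (25.6% to 27.3%) and 23.4% (22.6% to 24.3%). Thinning moved Ehmt1 from 25.8% and 25.9% to 16.4% (15.7% to 17.1%) and 15% (14.3% to 15.8%), Kmt5a from 34.7% and 38.1% to 23.2% and 22.5%, and Hdac1 from 21.3% and 24.8% to 13.1% and 14%. The thinned shares of the other members ranged from 2.61% (Kmt5c in KO) to 12.2% (Ehmt2 in KO). All members are broadly expressed genes, so no cell type that lacks them could serve as a background, and these shares include any UMIs of free RNA. The most UMIs of any member in a cell were 7, of Ehmt1.

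Members were next described by cell class. A cell entered a class, written X-like, when at least 3 markers of the class were at 5 times or more the UMIs expected at its depth and no other class had as many. This gave 13 classes of 58 to 720 cells per library, with 3494 WT and 2415 KO cells in all. A further 70.6% of WT and 75% of KO cells stayed ungated. Most small classes held many cells at exactly 3 markers, such as 48 of 58 WT and 39 of 58 KO arch mesenchymal neural crest-like cells. In all 13 classes KO cells were deeper than WT cells, for instance 2969 against 2242 UMIs at the median in cardiac muscle-like cells, and the part of this depth difference in the ratios was not tested.

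Among the 4 members with at least 12 classes, Hdac2 and Ehmt1 were lower in KO in most of them, while Kmt5a and Hdac1 were divided. Of 86 pairs of a member and a class with at least 50 UMIs, 26 were past the fold and lower in KO and 8 past the fold and higher. Over all genes, 34.4% of 46348 such pairs were past the fold, 19% lower and 15.4% higher, so at these counts many genes pass it. The interval lay below 0 in 10 of the 86 pairs and above 0 in 5. The share of such intervals over the pairs of all genes was not determined, so these counts do not set the members apart from other genes. Of these 15 pairs, 6 kept an interval off 0 under every other gate, cell set and denominator that gave them a value, and 9 did not. In endothelial-like cells 5 of 9 members were past the fold and all were lower, where 30.6% of all genes were past it and 17.8% lower. The median ratio of the 9 members there was −0.37, and that of all genes −0.03. In arch mesenchymal neural crest-like cells 3 of the 3 members with at least 50 UMIs were past the fold, all lower (median −0.59), against 40.4% of all genes past it and 15.9% lower. The count was 3 of 4 in neuron-like cells (1 higher, 2 lower), where the share of all genes was 36.8%, and 4 of 7 in somite-like cells (2 higher, 2 lower), where it was 37.1%. It was 0 of 8 in pharyngeal endoderm-like cells (37.5% of all genes), 1 of 6 in the pharyngeal and splanchnic mesoderm-like class (36.1%) and 2 of 8 in neural tube progenitor-like cells (30.9%). Cardiac muscle-like and erythroid-like cells had 3 of 9 members past the fold, all lower, at backgrounds of 33.4% and 35.8%. The remaining classes had 3 of 8 (migrating neural crest-like, 33.4%), 3 of 7 (floor plate-like, 36.8%), 2 of 4 (dorsal neural tube and roof plate-like, 41.2%) and 2 of 4 (surface ectoderm-like, 35.8%).

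**Figure D2:**
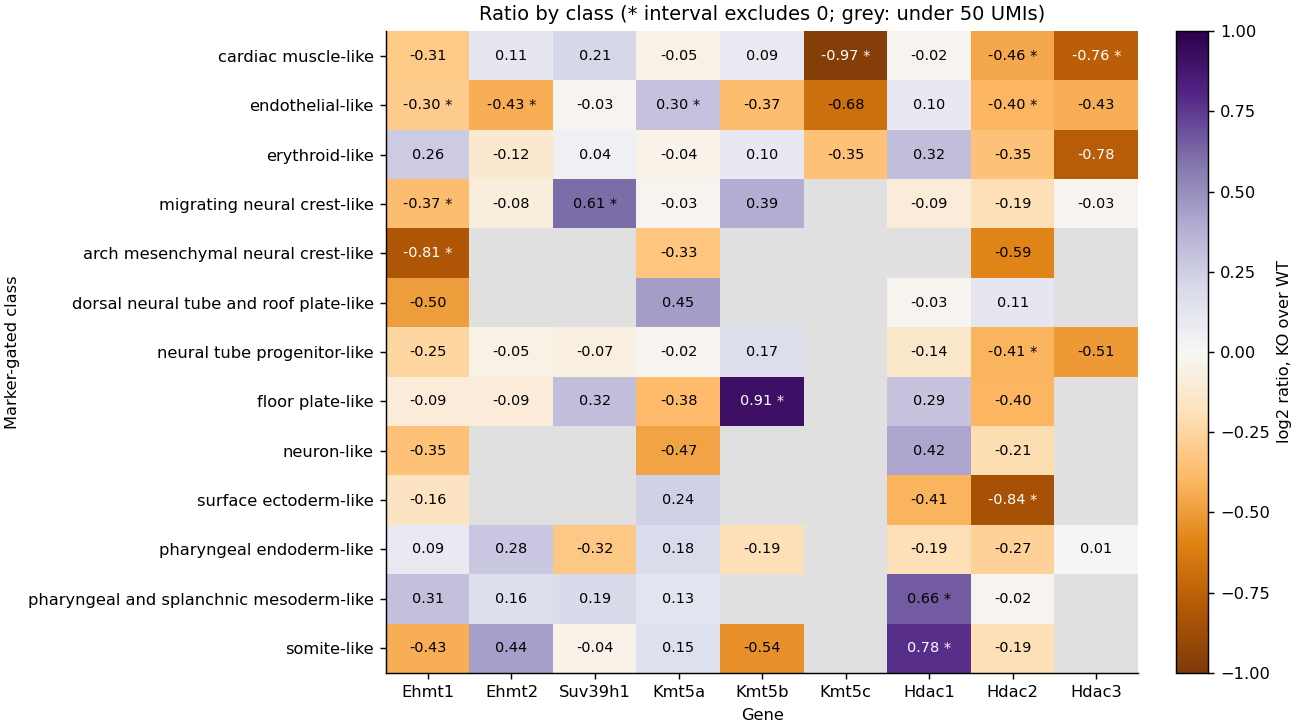
Log2 ratio of KO over WT of each member (columns) in each marker-gated class (rows), with purple for higher and orange for lower in KO; an asterisk marks a 95% counting interval that excludes 0, and grey marks pairs under 50 UMIs. The Hdac2 column is below 0 in 12 of 13 classes and the Ehmt1 column in 10 of 13, while Hdac1 is split 6 to 6.

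Hdac2 was lower in KO in 12 of 13 classes and past the fold in 7. In cardiac muscle-like cells it gave 409 WT and 199 KO UMIs (250 and 182 CPM), for a log2 ratio of −0.46 (−0.71 to −0.21), which was −0.21 (−0.30 to −0.12) when any UMI of a marker counted in the gate, which was the gate first planned. Endothelial-like cells had 322 and 229 UMIs (−0.40, interval −0.65 to −0.15), and neural tube progenitor-like cells 268 and 192 (−0.41, interval −0.68 to −0.13). Surface ectoderm-like cells gave the lowest ratio from fewer counts, 56 and 37 UMIs (−0.84, interval −1.48 to −0.22). The exception was the dorsal neural tube and roof plate-like class, with 39 and 43 UMIs (0.11, interval −0.55 to 0.77). In ungated cells, which held most of the UMIs, Hdac2 had 4221 and 3594 UMIs (−0.18, interval −0.25 to −0.12).

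Hdac1 did not follow Hdac2. It was higher in KO in 6 of 12 classes and lower in 6. Its interval lay above 0 in somite-like cells (50 and 51 UMIs, or 104 and 179 CPM, ratio 0.78, interval 0.19 to 1.37) and also above 0 in the pharyngeal and splanchnic mesoderm-like class (37 and 55 UMIs, ratio 0.66, interval 0.03 to 1.3). The second of these included 0 under 3 of 5 other settings, such as 0.28 (−0.07 to 0.63) with 2 markers. The ratio of Hdac2 to Hdac1 UMIs was lower in KO in 11 of the 12 classes compared, and its interval lay below 0 in 4 of them: cardiac muscle-like (−0.44), endothelial-like (−0.50), erythroid-like (−0.67) and somite-like (−0.97). The exception was again the dorsal neural tube and roof plate-like class (0.14, interval −0.86 to 1.14).

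Hdac3 reached 50 UMIs in 6 classes and was lower in KO in 5. Cardiac muscle-like cells showed 84 WT against 33 KO UMIs (51.2 and 30.2 CPM), for a log2 ratio of −0.76 (−1.39 to −0.17). It was −0.16 (−0.36 to 0.05) when any UMI of a marker counted in the gate and −0.41 (−0.97 to 0.12) with markers counted after thinning. Migrating neural crest-like cells had 32 and 28 UMIs (−0.03, interval −0.81 to 0.75), and pharyngeal endoderm-like cells 27 and 25 (0.01). Whether these classes differ in their ratio was not tested.

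Ehmt1 was lower in KO in 10 of 13 classes and past the fold in 5. In the neural crest classes, the migrating neural crest-like cells gave 155 WT and 107 KO UMIs (250 and 193 CPM), for a log2 ratio of −0.37 (−0.74 to −0.01). The arch mesenchymal neural crest-like cells showed 45 WT against 29 KO UMIs (340 and 194 CPM), for a log2 ratio of −0.81 (−1.54 to −0.11), which was −0.57 (−0.96 to −0.18) when 2 markers sufficed for the gate. Endothelial-like cells, which lie outside the Wnt1 lineage, had 216 and 164 UMIs (−0.30, interval −0.60 to −0.00). The intervals of the migrating neural crest-like and endothelial-like cells each included 0 under 2 of 7 other settings. The classes with more Ehmt1 in KO were erythroid-like (0.26), pharyngeal and splanchnic mesoderm-like (0.31) and pharyngeal endoderm-like (0.09), and each interval included 0. Without the 5% of cells with most UMIs, Ehmt1 was lower in 6 of 11 classes.

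Ehmt2 and Suv39h1 had 9 classes each and showed no common direction. Ehmt2 was lower in KO in 5, with an interval below 0 in endothelial-like cells (117 and 81 UMIs, ratio −0.43, interval −0.86 to −0.01) that included 0 under 4 of 7 other settings. Suv39h1 was higher in 5, and its interval lay above 0 in migrating neural crest-like cells, with 44 WT and 60 KO UMIs (70.9 and 108 CPM), for a log2 ratio of 0.61 (0.03 to 1.21). This interval included 0 under 6 of 7 other settings, with a ratio of 0.25 (−0.19 to 0.68) when 2 markers sufficed.

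Kmt5a was higher in KO in 6 and lower in 7 of 13 classes. It was past the fold in 4 of them, higher in the dorsal neural tube and roof plate-like class (0.45, interval −0.18 to 1.09) and lower in neuron-like (−0.47, interval −1.14 to 0.19), floor plate-like (−0.38, interval −0.91 to 0.15) and arch mesenchymal neural crest-like cells (−0.33, interval −0.95 to 0.28), and all 4 intervals included 0. In migrating neural crest-like cells it gave 186 WT and 163 KO UMIs (300 and 294 CPM), for a log2 ratio of −0.03 (−0.34 to 0.28). In neural tube progenitor-like cells it had 210 and 197 UMIs (−0.02, interval −0.31 to 0.27). The interval excluded 0 in endothelial-like cells, where Kmt5a was higher in KO (223 and 257 UMIs, or 182 and 224 CPM, ratio 0.30, interval 0.04 to 0.57), and it included 0 under 2 of 7 other settings. Kmt5b had an interval above 0 in floor plate-like cells (16 and 34 UMIs, ratio 0.91, interval 0.02 to 1.87). It included 0 under 5 of 7 other settings, such as 0.46 (−0.22 to 1.15) with 2 markers. Pharyngeal and splanchnic mesoderm-like cells, with 14 and 33 Kmt5b UMIs, fell under the 50 UMIs required.

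Kmt5c was lower in KO in all 3 classes with at least 50 UMIs. Cardiac muscle-like cells showed 82 WT against 28 KO UMIs (50 and 25.6 CPM), for a log2 ratio of −0.97 (−1.64 to −0.33). Endothelial-like cells had 41 and 24 UMIs (−0.68) and erythroid-like cells 56 and 21 (−0.35), with intervals that included 0. In ungated cells Kmt5c gave 349 WT and 346 KO UMIs (26.4 and 27.1 CPM), for a log2 ratio of 0.03 (−0.18 to 0.25). The lower Kmt5c of the summed libraries was thus not seen in ungated cells. In cardiac muscle-like cells the ratio was −0.29 (−0.58 to −0.00) when any UMI of a marker counted in the gate.

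Among the members, Ehmt1 had the most pairs of classes apart in level. It was lowest in erythroid-like cells in both libraries (71.2 CPM in WT and 85.2 in KO), followed by cardiac muscle-like (144 and 116) and endothelial-like cells (176 and 143). In WT it was highest in arch mesenchymal neural crest-like cells, at 340 CPM (interval 248 to 455), which was 2.25 (1.69 to 2.80) on the log2 scale above erythroid-like cells. In KO it was highest in pharyngeal and splanchnic mesoderm-like cells, at 259 CPM, and the arch class was 1.18 (0.46 to 1.89) above erythroid-like cells. Of 78 pairs of classes, 13 had intervals apart in both libraries, and no neighbours in the order did. Pairs apart were not counted for genes outside the members, so such counts do not show whether a member varies more over classes than other genes. Globin UMIs made up 16.5% and 17.2% of the erythroid-like totals, and 8 pairs stayed apart with globins left out of the denominator.

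**Figure D3:**
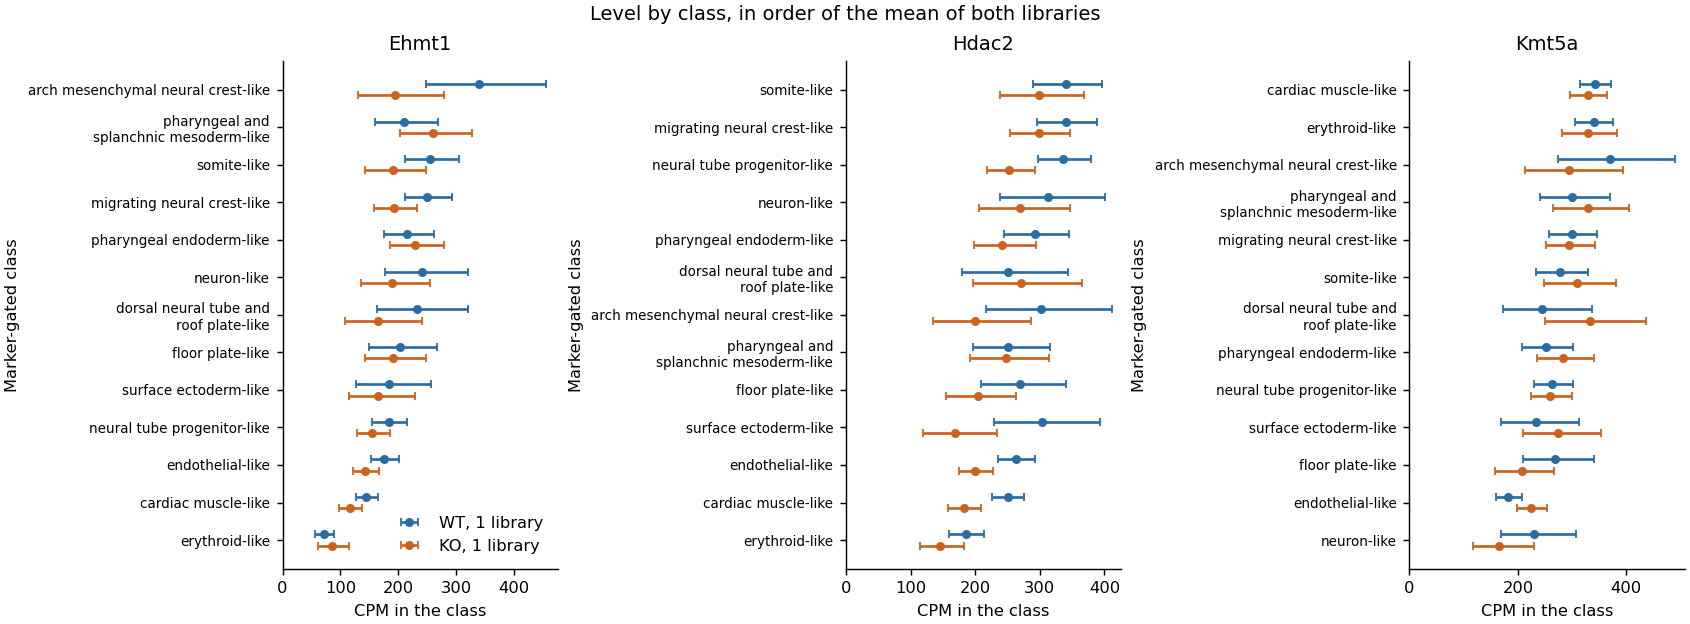
Level of Ehmt1, Hdac2 and Kmt5a in CPM in each marker-gated class, in order of the mean of both libraries; points are single libraries and bars are 95% counting intervals. Ehmt1 and Hdac2 are lowest in erythroid-like cells, where Kmt5a is among its highest levels.

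Hdac2 was highest in somite-like cells (340 CPM in WT and 298 in KO), with migrating neural crest-like cells next to them (340 and 298), and lowest in erythroid-like cells (185 and 145). Highest and lowest were 0.88 (0.57 to 1.19) apart in WT and 1.04 (0.57 to 1.51) in KO on the log2 scale, and 9 of 78 pairs were apart in both libraries. Kmt5a had another order. By the mean of both libraries, cardiac muscle-like (342 and 329 CPM), erythroid-like (340 and 329) and arch mesenchymal neural crest-like cells (370 and 294) were at the top. Endothelial-like (182 and 224) and neuron-like cells (230 and 166) were at the bottom, and 4 pairs were apart. Hdac1 ranged from 97.7 CPM in erythroid-like to 213 in surface ectoderm-like cells as means of both libraries, with 2 pairs apart. For Ehmt2, Suv39h1, Kmt5b, Kmt5c and Hdac3 no pair of classes was apart in both libraries, and these were also the members with the fewest UMIs. The counts of pairs apart moved with the setting. Without globin genes in the total, 7 pairs were apart for Kmt5a, 6 for Hdac2, and 1 each for Hdac1, Suv39h1 and Kmt5c. With 2 markers, 2 pairs each were apart for Ehmt2 and Kmt5b and 1 for Kmt5c, and when any UMI of a marker counted, 5 were apart for Hdac2 and 1 each for Ehmt2 and Hdac3.

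The neural crest, dorsal neural tube, neural tube progenitor and neuron-like classes were summed (960 WT and 814 KO cells) and set against 7 other classes (2396 and 1472 cells). Cardiac muscle-like cells (720 in WT and 389 in KO) are among these 7 classes. In the paper, cells labelled through Wnt1-Cre2 were seen in the myocardium at E9.5, so the other side is not known to be free of Cre. Floor plate-like cells were left out of both sums. The sum is wider than the Wnt1 lineage: neural tube progenitor-like cells made up 459 of its WT and 391 of its KO cells, and Nkx6-1, Olig2 and Pax6, genes of the ventral and intermediate neural tube, were among their leading genes in WT. With this gate Ehmt1 was the 1 member whose interval of the difference excluded 0, and with the planned gate, which counted any UMI of a marker, it was Hdac1 instead (−0.31, interval −0.58 to −0.03, against −0.24, interval −0.52 to 0.05). The ratio of Ehmt1 was −0.37 (−0.59 to −0.16) in the neural crest and neural tube classes, with 226 CPM in WT and 174 in KO. In the others it was −0.07 (−0.23 to 0.08), with 158 and 150 CPM, a difference of −0.30 (−0.56 to −0.04). With neural tube progenitor-like and neuron-like cells left out of the sum, an alternative chosen after seeing the data, the difference was −0.39 (−0.72 to −0.07). Erythroid-like cells held 20.2% of the UMIs of the other classes in WT and 13% in KO. Without them Ehmt1 in the other classes was at 179 and 159 CPM, for a log2 ratio of −0.17 (−0.33 to −0.01), and the difference was −0.20 (−0.47 to 0.06). With the planned gate the Ehmt1 difference was −0.13 (−0.37 to 0.11). The other classes were themselves divided. Ehmt1 was at −0.43 (−0.92 to 0.05) in somite-like cells, with 122 and 54 UMIs, at −0.31 (−0.63 to 0.01) in cardiac muscle-like and −0.30 in endothelial-like cells, but at 0.31 (−0.21 to 0.83) in the pharyngeal and splanchnic mesoderm-like class and 0.26 (−0.31 to 0.81) in erythroid-like cells.

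**Figure D4:**
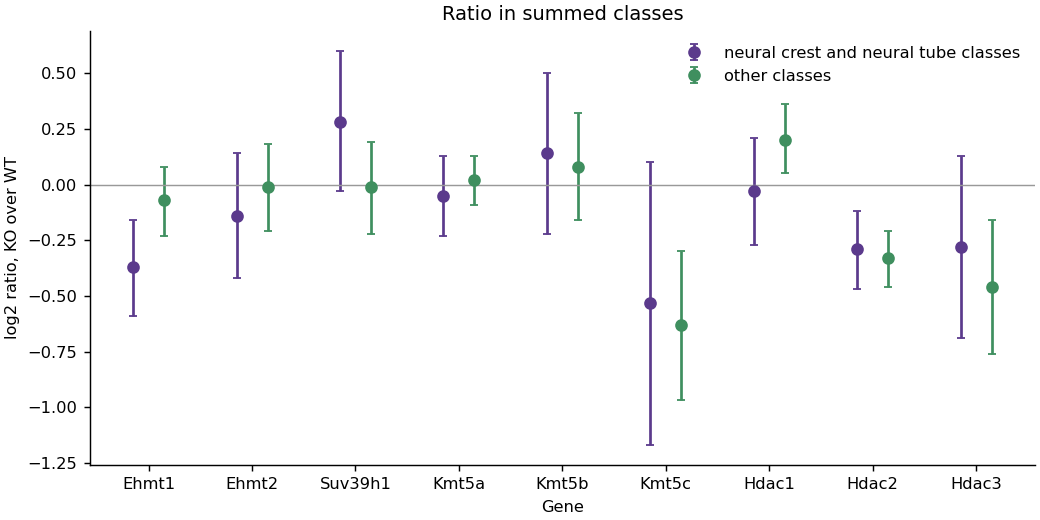
Log2 ratio of KO over WT of each member in the summed neural crest and neural tube classes and in the summed other classes, with 95% counting intervals as bars. Ehmt1 lies at −0.37 against −0.07 (−0.17 without erythroid-like cells), whereas Hdac2 lies at −0.29 and −0.33.

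Hdac2 was lower on both sides, at −0.29 (−0.47 to −0.12) in the neural crest and neural tube classes and −0.33 (−0.46 to −0.21) in the others, a difference of 0.04 (−0.17 to 0.25). Kmt5c was at −0.53 (−1.17 to 0.10) and −0.63 (−0.97 to −0.30), a difference of 0.11 (−0.58 to 0.79). Hdac3 was at −0.28 (−0.69 to 0.13) and −0.46 (−0.76 to −0.16), a difference of 0.18 (−0.31 to 0.67). For both, the interval of the difference included 0. Hdac1 was at −0.03 (−0.27 to 0.21) in the neural crest and neural tube classes and 0.20 (0.05 to 0.36) in the others. Suv39h1 was at 0.28 (−0.03 to 0.60) and −0.01, a difference of 0.30 (−0.07 to 0.66) that was 0.60 (0.12 to 1.08) without neural tube progenitor-like and neuron-like cells. In the neural crest and neural tube classes 1 of 8 members with at least 200 UMIs was past the fold and lower, where 17.3% of all genes were past it (7.9% higher, 9.38% lower). In the other classes 3 of 9 were, all lower, where 17.9% of all genes were past it (7.63% higher, 10.3% lower). With 2 and 3 UMIs of Prdm6 in the neural crest and neural tube classes, the members could not be related to its level there.

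Cells with a Prdm6 UMI numbered 101 in WT and 57 in KO. Hdac2 was lower in them than in the other cells of the same library, by 0.45 in WT (47 UMIs, log2 ratio −0.45, interval −0.89 to −0.04) and by 0.65 in KO (24 UMIs, log2 ratio −0.65, interval −1.29 to −0.07). Ehmt1 was at −0.56 (−1.16 to −0.01) in WT and at 0.51 (−0.02 to 0.99) in KO, from 27 and 34 UMIs. Hdac1 was at −0.20 (−0.82 to 0.35) in WT and at −0.89 (−1.85 to −0.08) in KO, from 26 and 12 UMIs. The intervals of the other 6 members included 0 in both libraries. Over all 10513 genes the interval lay below 0 for 2.78% in WT and 2.52% in KO, and above 0 for 4.58% and 4.71%. These cells were deeper than average, with medians of 2071 and 2555 UMIs, and differed in class: 25 of the 101 (24.8%) and 17 of the 57 (29.8%) were cardiac muscle-like, a class that made up 6.02% and 3.98% of all cells and was low in Hdac2. Without cardiac muscle-like cells on either side, chosen after seeing the data, Hdac2 was at −0.57 (−1.13 to −0.06) in WT and −0.23 (−0.92 to 0.39) in KO, and the intervals of Ehmt1 in WT (−1.05 to 0.22) and Hdac1 in KO (−1.82 to 0.24) included 0.

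Because Kmt5a and its mark are tied to the cell cycle, the cells of each library were put into 4 equal bins by the share of their UMIs in S phase or G2/M phase genes. The bins are ranges of a score and not phases. Hdac2 was higher in each successive bin of the S phase share in both libraries, from 277 to 295, 314 and 334 CPM in WT and from 230 to 260, 268 and 299 in KO. The last bin was above the first by 0.27 (0.17 to 0.37) and 0.38 (0.26 to 0.50) on the log2 scale, against a median of −0.00 and −0.01 over all other genes, of which 5% lay above 0.47 and 0.44. When cells were thinned to 1000 UMIs before binning, the WT value was 0.14 (−0.00 to 0.28) and the KO value 0.31 (0.15 to 0.47). Median depth fell over these bins in WT (1902 to 1330 UMIs) as well as in KO (2033 to 1428).

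**Figure D5:**
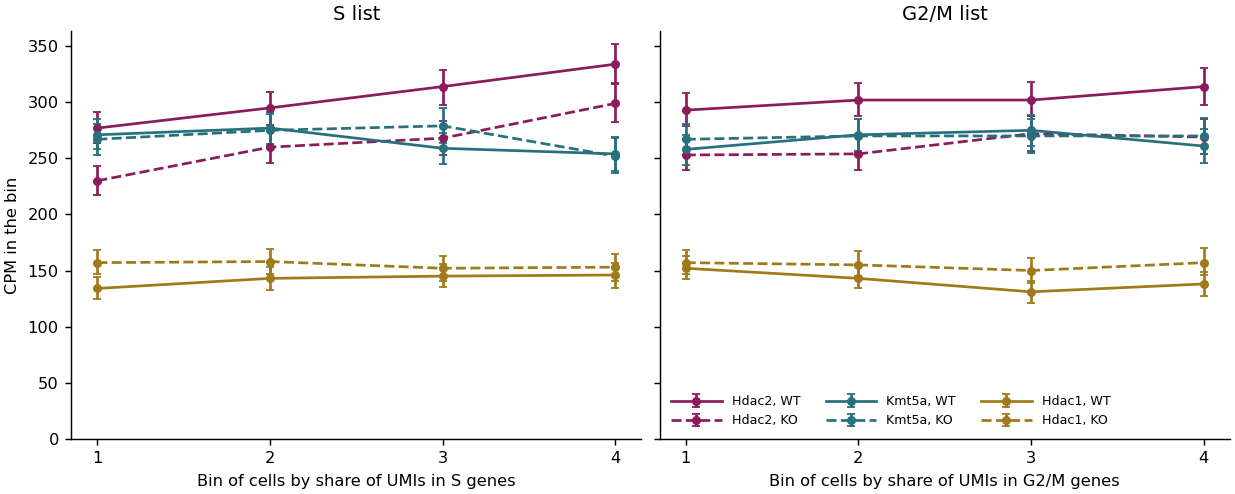
Level of Hdac2, Kmt5a and Hdac1 in CPM in 4 bins of cells ordered by the share of UMIs in S (left) and G2/M (right) genes, solid lines for WT and dashed for KO, with 95% counting intervals as bars. Hdac2 goes from 277 to 334 in WT over the S bins, and Kmt5a stays between 252 and 279 in both libraries.

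For Kmt5a the intervals of last over first bin included 0 throughout. Its last bin differed from the first by 0.02 in WT and 0.02 in KO for the G2/M genes (intervals −0.09 to 0.13 and −0.10 to 0.13) and by −0.09 and −0.08 for the S genes, again with intervals that included 0. Ehmt2 was higher in the last bin in WT, by 0.33 (0.16 to 0.50) for S and 0.29 (0.12 to 0.45) for G2/M genes, and in KO the values were 0.17 (−0.00 to 0.34) and 0.15 (−0.02 to 0.32). With cells thinned before binning the WT values were 0.14 (−0.10 to 0.37) and 0.09 (−0.14 to 0.32). Hdac3 in WT was at 0.34 (0.11 to 0.57) for S and 0.33 (0.10 to 0.55) for G2/M genes, and in KO both intervals included 0. Thinning gave 0.30 (−0.02 to 0.62) and 0.03 (−0.30 to 0.36) in WT. Kmt5b in WT was at −0.32 (−0.56 to −0.09) for S and 0.24 (0.02 to 0.46) for G2/M genes, and in KO at −0.11 (−0.35 to 0.13) and −0.15 (−0.38 to 0.08). The thinned WT values were −0.13 (−0.44 to 0.17) and 0.08 (−0.24 to 0.39), so for Ehmt2, Hdac3 and Kmt5b none of these intervals excluded 0 after thinning.

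Genes that share the pathway were counted over all cells against the same 14.5% background. Of 6 other H3K9 methyltransferases, 1 was past the fold: Setdb2 was higher in KO (136 and 157 UMIs, ratio 0.34, interval 0.00 to 0.68), and Prdm16 (−0.27) and Prdm2 (0.17) had intervals that included 0. Of 10 demethylases of H3K9 and H4K20, 1 was past the fold. Kdm4a, an H3K9 demethylase, was lower in KO (17.1 and 12.4 CPM, ratio −0.47, interval −0.72 to −0.23), and Kdm4c (−0.32, interval −0.49 to −0.15) and Phf2 (−0.30, interval −0.49 to −0.11) were next. Among 14 methyl readers and partners none was past the fold. Their median log2 ratio was 0.09, against −0.06 for all 10513 genes, of which 5% lay above 0.30. Wiz, the zinc finger partner of the Ehmt1 and Ehmt2 complex, was at 60.9 and 49.3 CPM (−0.30, interval −0.43 to −0.18), the heterochromatin protein Cbx5 at 659 and 799 CPM (0.28, interval 0.24 to 0.31), and L3mbtl2 at 0.23 (0.04 to 0.42).

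None of 6 other histone deacetylases was past the fold. Those with the largest ratios were Hdac11 (−0.26), Hdac4 (−0.15) and Hdac7 (−0.14). Of 23 genes of the class I deacetylase complexes, 2 were past the fold and both were lower in KO. They were Mta3, a NuRD subunit (22.6 and 17.1 CPM, ratio −0.40, interval −0.61 to −0.19), and Mbd2, its methyl-CpG binding partner (47.4 and 37 CPM, ratio −0.36, interval −0.50 to −0.22). Chd4, the NuRD remodeller, was higher in KO at 386 and 464 CPM (0.27, interval 0.22 to 0.31). Of 9 pocket proteins and genes of Kmt5a turnover, 1 was past the fold: Cdt1, a licensing factor that is degraded in S phase by the same CRL4-Cdt2 ligase as Kmt5a, was lower in KO at 125 and 91.4 CPM (−0.45, interval −0.54 to −0.37). Rb1 was at 0.24 (0.03 to 0.46) and Cul4a, a subunit of that ligase, at −0.20 (−0.32 to −0.07). Of 41 S phase genes 2 were past the fold, both higher in KO (Clspn 0.35 and Hells 0.34, with Nasp next at 0.30), and of 51 G2/M phase genes 2 were, also higher (Nusap1 0.59 and Kif20b 0.41, with Cenpe next at 0.32). These counts moved with the scaling. With TMM, which raises every log2 ratio by 0.06, 6 S phase and 8 G2/M phase genes were past the fold, all higher in KO, where 6.48% of all genes were past it and higher. Among the deacetylase complexes Chd4 and Sap18 were then past it and higher, and Mbd2 no longer passed, and among the readers Cbx5 passed it. The counts of the other 4 lists did not move with TMM or with the median of ratios.

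Levels of members were compared over 26 points, the 13 classes in each library, as log2(CPM + 10). Hdac2 and Hdac3 had a Pearson r of 0.71, Ehmt1 and Hdac2 of 0.70 and Ehmt1 and Kmt5b of 0.64, while Hdac1 and Hdac2 had 0.20 and Kmt5b and Kmt5a −0.25. The points share 2 libraries and their class totals, so these values describe the order of classes and nothing more. Among 6300 genes with at least 1000 UMIs, those most like Ehmt1 were Hnrnpa1 (0.91), Rara (0.88) and Smarcc1 (0.87), and those most like Hdac2 were Prmt1 (0.84), Acly (0.81) and Hnrnpa1 (0.81). The nearest to Hdac3 were Ppp2ca (0.81), Acly (0.80) and Tra2a (0.78), and to Hdac1 Efnb2 (0.83), Tspan6 (0.77) and Fnbp1l (0.76). Suv39h1 was nearest to Blm (0.75), Pbdc1 (0.71) and Chek1 (0.69), and Ehmt2 to Rcbtb2 (0.74), Tial1 (0.70) and Ptch1 (0.70). The nearest to Kmt5a were Pfkm (0.73), Mrpl42 (0.67) and Med30 (0.63), to Kmt5b Kcnq1ot1 (0.77), Efna4 (0.76) and Rnf44 (0.75), and to Kmt5c Flot2 (0.65), Tmem230 (0.65) and Slc25a39 (0.63).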

How the data were processed

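Droplet libraries (10x 3′ chemistry) of dissected E9.5 tissue were processed by the authors with Cell Ranger 1.3.1 and Scanpy, per the submitters' processing notes on mm10; the methods name a human genome with the reporter. Their stated filters kept cells of 200 to 6000 UMIs and at least 200 genes and genes seen in at least 3 cells. Mitochondrial and ribosomal UMIs were removed, and doublets were called with DoubletFinder, at a step whose order relative to deposit is not stated. Values deposited are a normalised signal per gene and cell: the square root of the UMI count divided by the cell total and multiplied by a constant. Squaring and dividing by the smallest nonzero square of each cell gave back whole UMIs for 100% of nonzero values (tolerance 0.01).

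UMIs were summed per library or class with Python 3.11.15, NumPy 2.4.6 and SciPy 1.17.1, and functions were tested on simulated data. Shares carry exact binomial intervals, and the interval of a difference of ratios is a normal one from the counts. With 1 library per genotype no model was fitted. The planned gate, at least 3 markers with any UMI, put 3900 WT cells (32.6%) and 3563 KO cells (36.5%) into the cardiac muscle class, and UMIs of the cardiac gene Myl7 were found in every class. The gate requiring 5 times the expected UMIs was chosen after the gate sizes and the values over all cells were seen, and before the values of the members by class. No doublet caller was run; cells with a tie between classes stayed ungated. Classes needed 50 cells in each library, and 2 of 15 did not reach this. Members and lists were chosen with earlier results of these data known. All members are named, with up to 3 genes per further list with the largest ratio at 200 UMIs or more, and the 3 genes most like each member. Other scalings (TMM, median of ratios), gates and thinning were tried as alternatives.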

Additional observations from a re-analysis of the deposited data

Results flagged for a closer look

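Ehmt1 differed between the summed neural crest and neural tube classes and the other classes in its log2 ratio of KO over WT, by −0.30 (−0.56 to −0.04). It was picked out because the interval of the difference excluded 0. The interval covers counting error only, and whether the difference exceeds that between embryos was not tested. Without erythroid-like cells it was −0.20 (−0.47 to 0.06), and with the planned gate −0.13 (−0.37 to 0.11). The UMIs of Ehmt1 behind it were 429 in WT and 321 in KO in the neural crest and neural tube classes and 845 and 593 in the others.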

How the results depend on the processing

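No member was past the fold over all cells under any of the 6 other scalings and cell sets. Pairs past the fold and higher in KO numbered 3 with at least 4 markers, against 8, and those lower in KO numbered 15 with 4 markers and 16 with markers counted after thinning, against 26; these settings left 47 and 41 pairs with enough UMIs, against 86. The difference of Ehmt1 between neural crest and neural tube classes and the others was −0.27 (−0.46 to −0.08) with 2 markers and −0.32 (−0.68 to 0.03) at 10 times the expected UMIs. Members whose difference excluded 0 numbered 2 with 2 markers (Ehmt1 and Hdac1), 2 without neural tube progenitor-like and neuron-like cells (Ehmt1 and Suv39h1), 0 without erythroid-like cells, 0 with markers at 10 times the expected UMIs and 1 with the planned gate, which was Hdac1 and not Ehmt1, against 1. With cells thinned before binning, 0 members were higher in the last S bin in both libraries, against 1. The share of genes past the fold was 33.9% with no UMI minimum (12.4% higher, 21.4% lower). Genes higher in KO were 6.48% with TMM and 6.73% with a median of ratios, and lower genes 6.86% with a median of ratios and 6.17% at 1000 UMIs or more. The TMM scaling shifts every log2 ratio up by 0.06, so Ehmt1 became −0.10, Hdac2 −0.15, Kmt5c −0.19, Hdac3 −0.17 and Hdac1 0.19. The gate with any UMI of a marker was the planned one, and the gate at 5 times the expected UMIs, on which the class values rest, was chosen after the gate sizes and the values over all cells were seen. The gate at 10 times, the sum without neural tube progenitor-like and neuron-like cells, the scalings of the gene lists and the cells with a Prdm6 UMI without cardiac muscle-like cells were added after seeing the data. Of 519 recomputed values, 98 left the counting interval of the value first given or, for counts and shares, differed from it by over 1.5 times, and 0 of those past the fold changed sign. The causes of these changes were not tested, apart from the fewer pairs and cells named here. No paired analysis was possible because each genotype had 1 library. Depth limits the class values: 31 of 117 pairs of a member and a class had under 50 UMIs.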
